A study of Mus musculus with 3 samples.

Results

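Interferon-stimulated genes were followed in primary cultures of mouse ocular pigment epithelium of 3 origins, each measured on 1 array. The 44 genes were taken from a list of interferon receptors, interferon-regulated transcription factors, RNA sensors, antiviral effectors and interferon-gamma response genes. Of these, 41 had at least 1 probe set annotated to that gene alone, among 18193 genes so measured. Where a gene had several, the brightest by mean log2 signal stood for it. Isg15 was listed only on a probe set that it shares with Gm9706, and the annotation listed no probe set for Oas1g or Ifi44.

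Pigment epithelium of the iris (called IPE), of the ciliary body (CBPE) or of the retina (RPE) was taken from adult C57BL/6 mice aged 6 to 8 weeks. Iris and ciliary body were digested with Dispase and DNase I, and the posterior eyecup with trypsin. The medium was RPMI 1640 with 10% fetal bovine serum for IPE and CBPE, and DMEM with 20% for RPE, replaced by serum-free medium the night before RNA extraction. Medium, enzyme and tissue cannot be told apart in comparisons with RPE. Cytokeratin was reported in over 99% of IPE cells and over 95% of CBPE and RPE cells, the latter pair after 14 days. For IPE no culture time is given, so time and tissue cannot be told apart in comparisons with it. The labels name no interferon or other inducer, and do not say how many animals were pooled. With 1 array per culture there is no replicate error and no test between cultures, and every difference given here is between single hybridisations.

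Interferons are secreted proteins that warn cells of viral infection. Type I interferons bind the receptor made of Ifnar1 and Ifnar2, interferon-gamma binds Ifngr1 and Ifngr2, and both signal through JAK kinases to STAT and IRF transcription factors. Target promoters carry the interferon-stimulated response element (ISRE), read mainly by IRF-containing complexes, or the gamma-activated site (GAS), read by STAT dimers. The induced proteins block viral entry, translation and replication, and serve antigen presentation.

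The stretches printed here show the ISRE in members whose signal differed at least 2-fold between cultures and that hold its core upstream of the transcription start. They are from RefSeq, build GRCm38.p6, written 5′ to 3′ on the strand of the gene, and capitals mark matches to the ISRE core TTTCNNTTTC on either strand. The stretch of Stat2 is chr10:128270248-128270335 on the plus strand, that of Bst2 is chr8:71537537-71537646 on the minus strand, and that of Ifit1 is chr19:34640754-34640863 on the plus strand.
Stat2: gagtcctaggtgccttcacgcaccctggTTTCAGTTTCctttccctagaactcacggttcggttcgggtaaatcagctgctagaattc
Bst2: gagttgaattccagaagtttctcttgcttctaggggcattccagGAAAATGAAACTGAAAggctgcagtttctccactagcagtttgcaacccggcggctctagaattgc
Ifit1: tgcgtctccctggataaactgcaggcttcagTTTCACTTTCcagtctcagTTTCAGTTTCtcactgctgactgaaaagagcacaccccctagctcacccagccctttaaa
The single core of Stat2 begins 222 bases before the start. Ifit1 holds 2 separate cores, the nearer beginning 85 bases before the start, and the 2 cores of Bst2 overlap. A match describes the letters and does not show that a factor binds there.

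The promoter table gave 36 of the 44 genes a window of 250 bases before to 50 bases after the start. The ISRE core was present in 17 of them (47.2%), against 3.99% of all 27025 genes in the table. The GAS core TTCNNNGAA, searched on both strands, was present in 12 (33.3%), against 9.55% of all genes. At least 1 of the cores was present in 24 members and both in 5, and ISRE and GAS matches overlapped in Bst2 and Ifitm3. The ISRE core was found in 4 of 11 members that differed at least 2-fold in some comparison and in 11 of 22 that did not. Windows were lacking for Usp18, Mx1, Mx2, Oas2, Ifi27l2a, Iigp1 and Parp14, which differed at least 2-fold, and for Dhx58, which did not. The 11 are thus out of 18 such members and the 22 out of 23, so these shares cannot be compared for all members. It was found in 4 of 10 members brightest in IPE, 7 of 14 brightest in CBPE and 4 of 9 brightest in RPE. Members with the core were thus spread over all 3 cultures.

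**Figure D1:**
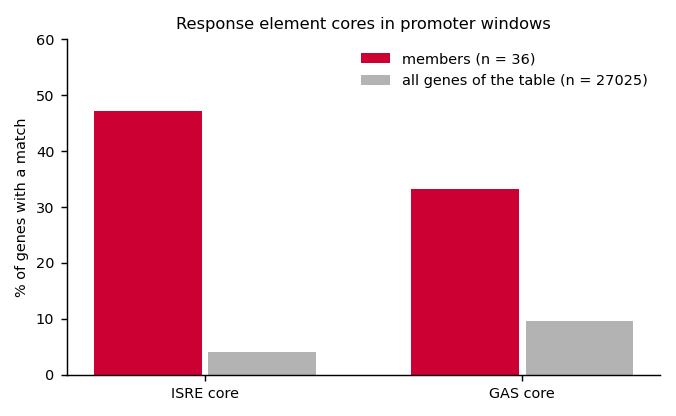
Share of genes (percent, vertical axis) whose promoter window holds the ISRE core or the GAS core, for the 36 members with a window (red) and all 27025 genes of the promoter table (grey). The ISRE core was in 47.2% of the members and 3.99% of all genes.

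Signals are linear values as deposited, scaled so that each array had a 2% trimmed mean of 100.001. A floor was set at the median of each array's non-control probe sets (IPE 14.5, CBPE 17.3, RPE 16.8), and lower signals were raised to it before log2 was taken. Of the 41 members, 38 exceeded the floor on every array, and Irf5, Irf8 and Mx1 did so on some. Probe sets for bacterial transcripts that such samples lack (27 in all) reached 7.9 for IPE, 20.2 for CBPE and 16.6 for RPE. The geometric means of 12 hybridisation controls were 1239, 3192 and 1941 in the same order, and the 3′ to 5′ ratio of the Actb controls was 1.5, 2.26 and 2.25. The 5′ control of 18S ribosomal RNA gave 17.6, 274.3 and 27.7, setting the CBPE array apart. The part of these array differences in the results was not tested.

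Pigment epithelium markers were above the floor for 12 of 14 genes in IPE, 9 in CBPE and 11 in RPE, with summed signals of 6267, 1206 and 2062. The cytokeratin genes of this list went against its sum, with Krt8 at 17.4, 95.3 and 26.2 and Krt18 at 144.1, 422.4 and 218.6, both highest in CBPE. Rpe65, which defines retinal pigment epithelium in the eye, was under the floor in all 3 cultures, RPE included. Of 15 macrophage and leukocyte markers, 6 exceeded the floor in IPE, 13 in CBPE and 8 in RPE, with summed signals of 396.6, 2815 and 596.2, while Ptprc and Itgam, which define leukocytes and myeloid cells, were under it in all. Endothelial markers exceeded the floor for 5, 8 and 4 of 10 genes, with summed signals of 1197, 1803 and 558.5. All 10 fibroblast markers exceeded it on every array, with sums of 34264, 58913 and 45492. Among 9 lymphocyte and plasmacytoid cell markers only Cd8a and Bst2, itself a member, did so, while Cd3e, Cd79a and Siglech did not. In such bulk RNA, fewer cells of a type and less RNA per cell cannot be told apart.

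Most interferon-stimulated genes, like most genes measured, stayed within 2-fold in each comparison. The few that were called went in both directions against IPE, and were mostly lower for RPE against CBPE. A member counted as called if 1 signal was at least 2-fold the other and exceeded its floor. In CBPE against IPE, 8 of 41 members (19.5%) were called higher, where 11.8% of all 12831 genes were, and 5 (12.2%) lower, where 12.5% were. In RPE against IPE, 4 of 41 (9.76%) were higher, against 9.87% of all 12446 genes, and 6 (14.6%) lower, against 10.5%. In RPE against CBPE, 1 of 40 (2.5%) was higher, against 3.75% of all 12860 genes, and 5 (12.5%) lower, against 4.26%. A positive difference was found in 24 of 41 members for CBPE minus IPE (58.5%, against 51.9% of all genes). For RPE minus IPE it was 18 of 41 (43.9%, against 50.9%), and for RPE minus CBPE 15 of 40 (37.5%, against 49.7%). The members' median log2 difference for RPE minus CBPE was -0.28, against -0.0020 over all genes. The called shares farthest from the background rest on 8 and 5 genes. Each pair of these comparisons shares an array.

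The split between higher and lower depended on the scaling in both comparisons with IPE, while for RPE against CBPE it was 1 higher and 5 lower, the same genes, under all 3 scalings. With equal medians on the 3 arrays, the median log2 difference of all genes moved from 0.04 to -0.22 for CBPE minus IPE and from 0.02 to -0.20 for RPE minus IPE. The members then split into 6 higher and 7 lower for CBPE against IPE, where all genes stood at 7.36% and 18.5%, and into 2 and 6 for RPE against IPE, where all genes stood at 6.28% and 15.4%. Under quantile normalization they split into 8 and 4 for CBPE against IPE (all genes 13.3% and 9.53%) and into 5 and 5 for RPE against IPE (all genes 11.2% and 8.13%). Taken relative to the median of all genes, the members' median log2 difference was 0.15 for CBPE minus IPE, -0.12 for RPE minus IPE and -0.28 for RPE minus CBPE. Under quantile normalization these relative medians were 0.11, -0.13 and -0.19.

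**Figure D2:**
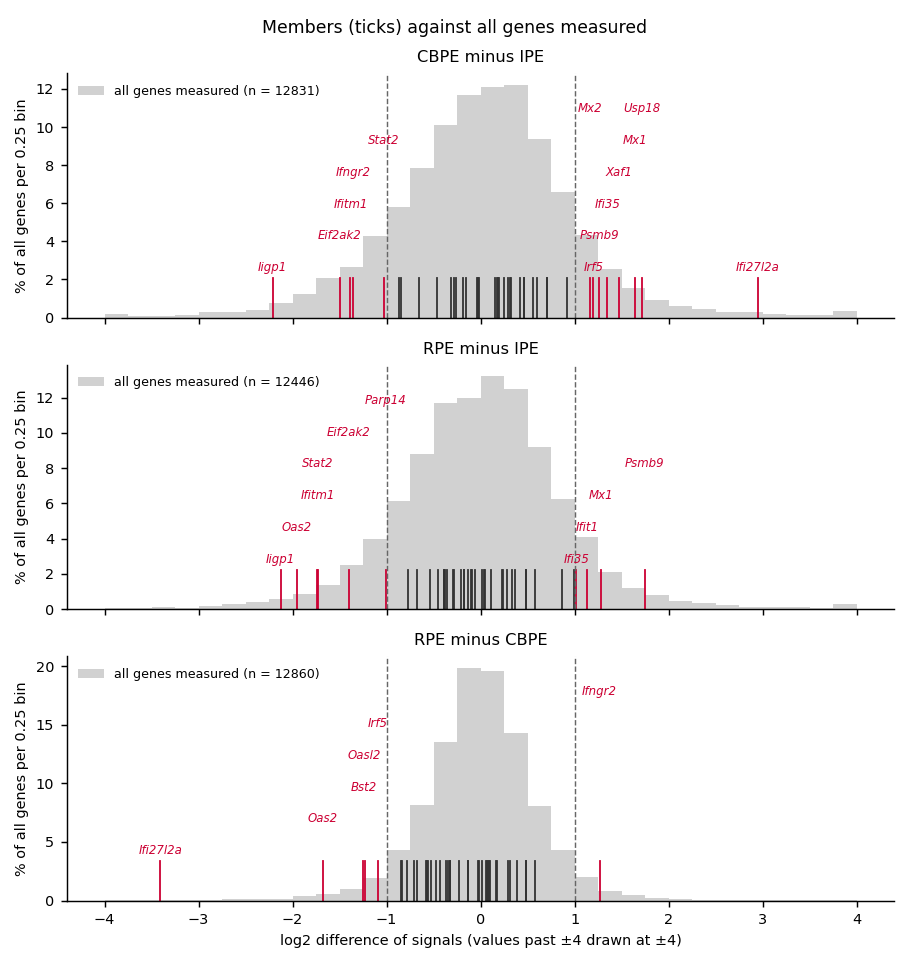
Log2 difference of signals (horizontal axis) in the 3 comparisons, with all genes measured as a grey histogram (percent of genes per bin, vertical axis) and each member as a tick. Red ticks with names are the members called at 2-fold, beyond the dashed lines; members lie on both sides of 0 in each panel, and Ifi27l2a lies farthest from 0 in the panels that include CBPE.

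CBPE held the highest signal for 19 of 41 members (46.3%), as it did for 34.4% of all 13345 genes that exceeded the floor anywhere. IPE held it for 13 (31.7%, against 37.5% of all genes) and RPE for 9 (22%, against 28%). With equal medians, IPE held it for 20 members (48.8%, against 49% of all genes) and CBPE for 14 (34.1%, against 26.6%). Under quantile normalization, IPE held it for 11 (26.8%, against 32.6%) and CBPE for 21 (51.2%, against 36.6%). No member was called in all 3 comparisons, and 18 were called in at least 1. The same counts were not taken over all genes, so neither can be set against a background. The 23 members not called differed by at most 1.89-fold between any pair of cultures, the value of Ifitm3 for CBPE against IPE.

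**Figure D3:**
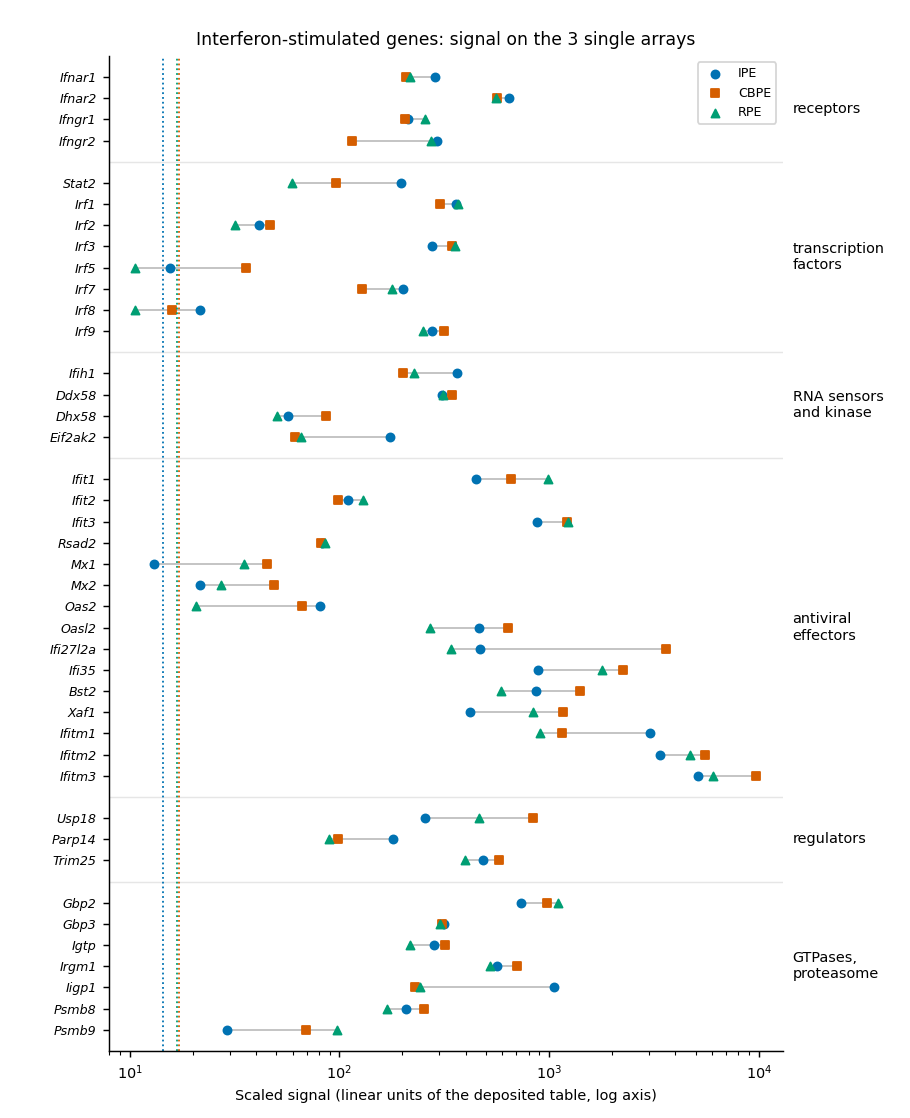
Signal of the 41 members (log axis, linear units of the deposited table) on the IPE (blue circles), CBPE (orange squares) and RPE (green triangles) arrays, grouped by role, with a grey line joining each gene's lowest and highest value. Dotted lines mark the floor of each array; Ifi27l2a stands out in CBPE, Iigp1 and Ifitm1 in IPE, and Oas2 is lowest in RPE.

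The receptors of both interferon types exceeded the floor in all 3 cultures. Ifnar1, a chain of the type I receptor, gave 286.7 for IPE, 207.1 for CBPE and 218.3 for RPE. Its partner Ifnar2 gave 642.8, 565 and 556.3, and Ifngr1, the ligand-binding chain for interferon-gamma, gave 211.9, 206 and 256.5. These chains stayed within 1.38-fold in each comparison. Ifngr2, the second chain of the interferon-gamma receptor, gave 293.9 for IPE, 114.5 for CBPE and 275.1 for RPE, so that CBPE lay 2.57-fold below IPE and 2.4-fold below RPE. A further Ifngr2 probe set gave 69.1, 86 and 56, with CBPE highest, so the low CBPE value rests on 1 probe set. Among further Ifnar2 probe sets, 1 gave 170.9, 71.7 and 65.6, with IPE 2.38-fold above CBPE and 2.61-fold above RPE. The brightest stayed within 1.16-fold, and the remaining 1 gave 99, 89.1 and 115.9, with RPE highest.

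Stat2, which pairs with Irf9 to carry the type I signal to ISRE promoters, gave 197.2 for IPE, 96.7 for CBPE and 59.3 for RPE. IPE lay 2.04-fold above CBPE and 3.33-fold above RPE. Its other probe set gave 80.2, 104.4 and 72, so the order of IPE and CBPE differed between probe sets, whereas both placed RPE lowest. Irf9 gave 276.4, 316.1 and 251.4, within 1.26-fold. Irf7, which amplifies interferon production and is itself induced by it, gave 201.5, 128 and 178.3, within 1.57-fold. Neither Irf9 nor Irf7 was called. Irf1, an activator in the interferon-gamma response, gave 360.8, 301.4 and 369. Irf3, which triggers interferon-beta transcription after viral sensing, gave 278.2, 345.3 and 357.9, and Irf2, an antagonist of Irf1, gave 41.5, 47 and 31.7. By their brightest probe sets these 3 stayed within 1.48-fold. A further Irf3 probe set, at 71.6, 42 and 64.3, had CBPE lowest, 1.7-fold below IPE. Another, at 38.9, 35.9 and 34.1, had RPE lowest and stayed within 1.14-fold.

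Irf5 and Irf8 are factors best known from myeloid and lymphoid cells, and both lay near the floor. Irf5 gave 15.6 for IPE, 35.8 for CBPE and 10.6 for RPE, the last under the floor, so CBPE was 2.29-fold above IPE and at least 2.13-fold above RPE. Its further probe set, at 12.8, 25 and 4.3, also had CBPE highest. Irf8 exceeded the floor in IPE alone, at 21.6, with 16 for CBPE and 10.6 for RPE. Of 13 measured macrophage and leukocyte markers, 11 were called higher for CBPE against IPE, where 11.8% of all genes were. For RPE against CBPE 11 were called lower, where 4.26% of all genes were. Irf5 was likewise highest in CBPE and Irf8 was not, and the part of such cells in these signals was not tested.

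The helicase sensors of viral RNA stayed within 2-fold, and the RNA-activated kinase did not. Ddx58, which encodes RIG-I, gave 308.8 for IPE, 343.1 for CBPE and 312.2 for RPE. Ifih1, a sensor of long double-stranded RNA, gave 362.4, 201.4 and 227.2, so IPE lay 1.8-fold above CBPE, a difference that passed 2-fold with equal medians. Dhx58, a regulator of both, gave 57, 86.3 and 50.3. IPE stood highest for Ifih1 in each alternative run, and for Ddx58 with equal medians only. Eif2ak2, the double-stranded RNA kinase PKR that halts translation, gave 173.8 for IPE, 61.4 for CBPE and 65.6 for RPE, with IPE 2.83-fold and 2.65-fold above them. Its second brightest probe set, at 99.3, 63.9 and 79.2, also had IPE highest but stayed within 1.55-fold. A further dim probe set, at 7.9, 19.5 and 18.2, had IPE lowest and under the floor.

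Antiviral effectors included the widest differences of the list. Ifi27l2a, a small protein strongly induced by type I interferon, gave 468.4 for IPE, 3616 for CBPE and 340.8 for RPE. CBPE lay 7.72-fold above IPE and 10.6-fold above RPE, while IPE and RPE stayed within 1.37-fold. Both CBPE differences were at least 2-fold in each alternative run, and the gene has 1 probe set. Bst2, the tetherin that holds budding virus at the cell surface and whose overlapping cores are printed above, gave 862.7, 1406 and 591.7. CBPE lay 2.38-fold above RPE and 1.63-fold above IPE. The summed leukocyte, endothelial and fibroblast marker signals were also highest in CBPE. Within these lists, however, Flt1, Eng and Pdgfra were highest in IPE and Postn in RPE. The part of these cell types in the Ifi27l2a and Bst2 signals was not tested. Siglech, a marker of plasmacytoid dendritic cells, which carry Bst2 without stimulation, was under the floor on all 3 arrays. The part of plasmacytoid dendritic cells in the Bst2 signal was not tested.

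The Mx genes encode GTPases that trap viral ribonucleoproteins, and common inbred mouse strains are known to carry defective alleles. Mx1 was under the floor in IPE at 13.1 and gave 45.3 for CBPE and 35.1 for RPE, which exceed the IPE floor by at least 3.12-fold and 2.42-fold. Mx2 gave 21.7, 48.7 and 27.3, with CBPE 2.24-fold above IPE. IPE was lowest for both, but the signals were low, and with the floor at the 60th percentile neither gene was called.

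The oligoadenylate synthetase family detects double-stranded RNA and activates RNase L, and its measured members were lowest in RPE. Oas2 gave 80.7 for IPE, 66.5 for CBPE and 20.8 for RPE, so RPE lay 3.88-fold below IPE and 3.2-fold below CBPE. Oasl2, a relative with ubiquitin-like domains, gave 462.8, 635.8 and 270, with RPE 2.35-fold below CBPE and 1.71-fold below IPE. RPE stayed lowest for both genes in each alternative in which they were measured. Oas2 in RPE was close to the floor of 16.8, so its fold is imprecise. Oas1a, a relative outside the 44 genes that was picked after its values were seen, gave 180.6, 267 and 65.3. Whether probes of these related genes share transcripts was not tested.

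The Ifit proteins bind viral RNA and block its translation, and their genes lie together on chromosome 19. Ifit1, whose cores are printed above, gave 450.3 for IPE, 661.1 for CBPE and 985.3 for RPE, with RPE 2.19-fold above IPE. Ifit3 gave 878.6, 1214 and 1228, within 1.4-fold, and Ifit2 gave 110.6, 99 and 129.3, within 1.31-fold. RPE held the highest signal for all 3 in each alternative run, though Ifit1 alone was called, and only against IPE. With equal medians its log2 difference from IPE was 0.92, under the call. Rsad2, or viperin, which makes a chain-terminating nucleotide, gave 82.7, 81.5 and 85.6, within 1.05-fold. Its further probe sets, at 32.7, 21.6 and 30.7 and at 16.8, 24.4 and 35.9, ordered the cultures differently from each other.

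The Ifitm proteins sit in membranes and block fusion of incoming virus, and their 3 genes here adjoin on chromosome 7, with 0 other coding genes between. Ifitm1 gave 3029 for IPE, 1160 for CBPE and 908.7 for RPE, so IPE lay 2.61-fold and 3.33-fold above them. Both calls held in each alternative run, and the gene has 1 probe set. Ifitm2 gave 3398, 5533 and 4729, and Ifitm3 gave 5132, 9692 and 6051. For both, IPE was lowest as deposited, but under quantile normalization it was highest, with log2 differences for CBPE minus IPE of -0.14 for Ifitm2 and -0.15 for Ifitm3 in place of 0.70 and 0.92. The direction of these 2 genes therefore depended on the scaling, and that of Ifitm1 did not. The paralogs are similar in sequence, and cross-hybridisation was not tested.

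Ifi35, a partner of Nmi in interferon signalling, gave 882.6 for IPE, 2247 for CBPE and 1787 for RPE, lying 2.55-fold and 2.02-fold above IPE. Its further probe sets, at 188.1, 373.2 and 395.8 and at 155.6, 385.6 and 308, also had IPE lowest. Xaf1, a promoter of apoptosis induced by interferon, gave 420.9, 1163 and 838.4. CBPE lay 2.76-fold above IPE and RPE 1.99-fold, just under the call. IPE was the lowest culture for both genes in each alternative run.

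Usp18, the protease that removes ISG15 from proteins and dampens the type I receptor, gave 255.4 for IPE, 837.2 for CBPE and 463.6 for RPE. CBPE lay 3.28-fold above IPE, and at least 2-fold in each alternative run, and RPE lay 1.82-fold above IPE. Usp18 has 1 probe set. The probe set listed for both Isg15, the ubiquitin-like protein itself, and Gm9706 gave 539.9, 1431 and 862.7. It is not counted, since its signal cannot be assigned to Isg15 alone. Parp14, an ADP-ribosyltransferase, gave 180.5, 98.9 and 89.8, with IPE 2.01-fold above RPE, at the limit of the call. Trim25, the ubiquitin ligase that acts on RIG-I, gave 485.7, 576.7 and 398.6, and each of its 3 probe sets had CBPE highest and RPE lowest as deposited, while with equal medians the brightest had IPE highest.

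Interferon-gamma induces GTPases that attack the vacuoles of intracellular pathogens. Among them Iigp1 gave 1062 for IPE, 229 for CBPE and 242.9 for RPE, with IPE 4.64-fold and 4.37-fold above them. Its other probe set gave 660.4, 218.5 and 241.6, with IPE 3.02-fold and 2.73-fold above. IPE stood apart by both probe sets and in each alternative run. The related Irgm1 gave 563.6, 704.6 and 523.3, and Igtp gave 282.1, 319 and 216.4. Of the guanylate-binding proteins, Gbp3 gave 315, 308.1 and 302.2, and Gbp2 gave 736.5, 983.2 and 1100. These 4 stayed within 1.49-fold.

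Psmb9 and Psmb8 encode subunits of the immunoproteasome, which cuts peptides for MHC class I. They lie in the MHC on chromosome 17, with 1 other coding gene between. Psmb9 gave 29 for IPE, 69.6 for CBPE and 97.3 for RPE, lying 2.4-fold and 3.36-fold above IPE. Psmb8 gave 207.1, 252.7 and 169.4, within 1.49-fold. IPE was lowest for Psmb9 but not for Psmb8. The log2 difference of Psmb9 for RPE minus IPE, 1.75, ranged from 1.33 to 1.89 over the alternatives in which it was measured.

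Disagreement between probe sets of a gene was the only error that could be measured. Over all genes with several probe sets above 100 on the arrays compared, the pooled SD of their log2 differences was 0.49 for CBPE minus IPE, 0.45 for RPE minus IPE and 0.29 for RPE minus CBPE. It leaves out variation between cultures, animals and hybridisations. For CBPE minus IPE, 14 of 20 further probe sets of members had the sign of the brightest (70%, against 69% over all genes). For RPE minus IPE it was 12 of 19 (63.2%, against 68%), and for RPE minus CBPE 13 of 20 (65%, against 61.6%). Among called members it was 5 of 8 for CBPE minus IPE, 5 of 7 for RPE minus IPE and 1 of 2 for RPE minus CBPE, where called genes in general stood at 82.8%, 80.8% and 78.6%. Called members thus had a lower share than called genes in general, over few probe sets. In the comparisons where they were called, the further probe sets of Iigp1, Ifi35 and Irf5 had the same sign. Stat2, Eif2ak2 and Ifngr2 had an opposing one for CBPE minus IPE, Eif2ak2 and Parp14 for RPE minus IPE, and Ifngr2 for RPE minus CBPE.

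**Figure D4:**
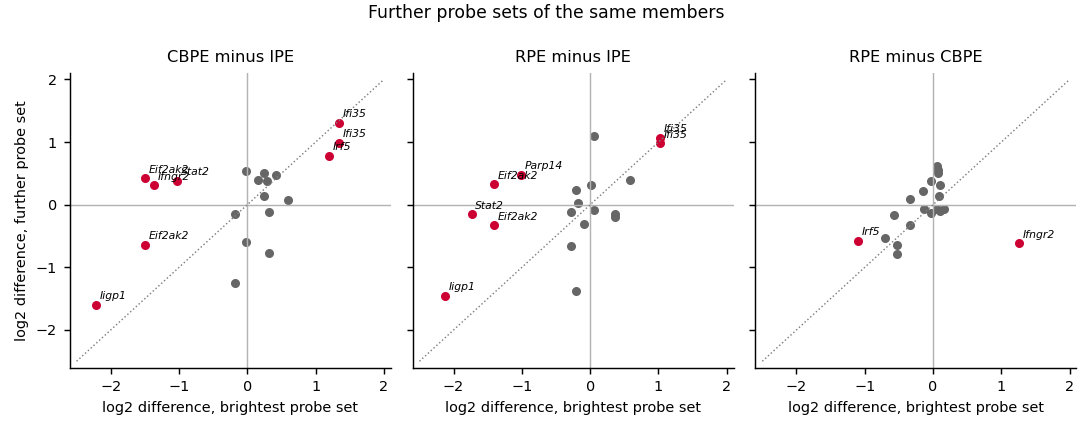
Log2 difference by the brightest probe set of a member (horizontal axis) against that by a further probe set of the same gene (vertical axis) in each comparison. Red points are members called at 2-fold by the brightest probe set, and the dotted line marks equal values; Ifi35 lies near it, and Ifngr2 has opposing signs in the panels for CBPE minus IPE and RPE minus CBPE.

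Other genes of the pathway were read from further lists. Interferon transcripts themselves were near or under the floor, where 8 of 10 ligand genes lay on every array. Ifnb1, the gene of interferon-beta, gave 18.6 for CBPE, under the 20.2 of the absent bacterial controls there, and was under the floor elsewhere. Ifnz, the gene of interferon-zeta, gave 17.9 for IPE and 25.9 for RPE, above the absent bacterial controls of those arrays, and was under the floor for CBPE at 15.5. Among 9 measured receptor signalling and feedback genes, 0 were called higher for either CBPE or RPE against IPE, 3 were lower for CBPE and 2 for RPE, and 0 were called for RPE against CBPE. The shares of all genes called higher and lower were 11.8% and 12.5% for CBPE against IPE, 9.87% and 10.5% for RPE against IPE, and 3.75% and 4.26% for RPE against CBPE. The list's median log2 difference was -0.76 for CBPE minus IPE and -0.62 for RPE minus IPE, where that of all genes was 0.04 and 0.02. Socs3, a feedback inhibitor of JAK kinases, gave 1147 for IPE, 367 for CBPE and 261.9 for RPE. The kinase gene Jak1 gave 774.7, 322.8 and 504.1 and Jak2 gave 185.9, 83.8 and 115.4. Stat3, a factor used by many cytokines, gave 1085, 642.3 and 445.6. IPE was highest for all 4 named genes. They were named because they were called, and every call of this list against IPE was lower. That order was thus largely set by the choice of genes. Of the measured genes not called, IPE was highest for Pias1 and Ptpn2, lowest for Tyk2, and between the other cultures for Ptpn11 and Il10rb.

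Among 13 upstream sensing genes, 1 was called higher and 1 lower for CBPE against IPE, and 0 higher and 2 lower for RPE against IPE. Of 12 measured for RPE against CBPE, 0 were higher and 2 lower. All genes were called higher and lower at 11.8% and 12.5%, 9.87% and 10.5%, and 3.75% and 4.26% in these comparisons. The counts for CBPE against IPE were not above background. The lower counts of 2 of 13 and 2 of 12 exceeded it, each resting on 2 genes. Zbp1, a sensor of Z-form nucleic acid, gave 209.9, 452.4 and 179, and Irak1, a kinase of Toll-like receptor signalling, gave 334.6, 435.3 and 207.3. Both were highest in CBPE. Sting1, the adaptor of DNA sensing, gave 200.8, 151 and 96.2, and Rela, an NF-kappa-B subunit, gave 589.1, 260.4 and 210.6. Both were highest in IPE and lowest in RPE.

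Of 27 further type I response genes, 3 were called higher and 2 lower for CBPE against IPE. For RPE against IPE 1 of 28 was higher and 6 lower, and for RPE against CBPE 0 of 26 were higher and 4 lower. All genes were called higher and lower at 11.8% and 12.5%, 9.87% and 10.5%, and 3.75% and 4.26% in these comparisons. The counts for CBPE against IPE were not above background. For RPE, the lower counts of 6 of 28 and 4 of 26 were above it, and the higher counts were under it. The list's median log2 difference was -0.11, -0.59 and -0.43, against 0.04, 0.02 and -0.0020 over all genes. Lgals3bp, a secreted glycoprotein, gave 1693, 1648 and 639.5, and Adar, the RNA-editing deaminase, gave 441.7, 323.7 and 170.7. RPE was lowest for both. Isg20, an exonuclease, gave 90.4, 329.6 and 156.9, and Phf11d gave 87.4, 283.5 and 152. CBPE was highest for these.

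Of 17 further interferon-gamma response genes, 4 were called higher and 1 lower for CBPE against IPE. For RPE against IPE 2 of 15 were higher and 1 lower, and for RPE against CBPE 0 of 16 were higher and 2 lower. The shares of all genes in these comparisons were 11.8% and 12.5%, 9.87% and 10.5%, and 3.75% and 4.26%. Cxcl10, a chemokine that draws activated T cells, gave 70.2 for IPE, 302.6 for CBPE and 314 for RPE, lying 4.31-fold and 4.47-fold above IPE. Cxcl9, a related chemokine, was under the floor in IPE at 1.3 and gave 170.1 and 48.5, at least 11.7-fold and 3.34-fold above it. B2m, the light chain of MHC class I, gave 3721, 8062 and 4916. IPE was lowest for these 3. Gbp7, a guanylate-binding protein, gave 352.7, 125 and 175.9 and was highest in IPE, as was the member Iigp1.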

How the data were processed

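Each of 3 cultures was hybridised to 1 array, per the labels. The authors deposited linear intensity values for 45101 probe sets, including 64 controls, and the summary software is not given in the sources used here. Gene names came from a platform annotation of 2016, updated by gene ID to RefSeq symbols (GRCm38.p6). Of the non-control probe sets, 34945 had 1 gene, and 932 listed with several genes named none. From these intensities, log2 differences were computed after the floor, and a difference of at least 2-fold was called. Arrays carry no counting depth, and their number, 1 per culture, limits the precision. Every called member is given on all arrays. Of each further list, up to 4 called genes with the highest mean log2 signal are named, and Oas1a, Ifnb1 and Ifnz were added after their values were seen. The members, lists and rules were chosen with earlier results of these data known. Python 3.11.15, numpy 2.4.6 and pandas 2.3.3 were used, and the calling step was tested on simulated data. The simulated differences were well above 2-fold, in genes over the floor on all arrays, with less noise than that between probe sets here. Calls near 2-fold or near the floor were thus not tested by it. Alternatives changed the floor, the scaling and the choice of probe set.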

Additional observations from a re-analysis of the deposited data

How the results depend on the processing

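Every called member kept its direction in each alternative in which it was measured. At least 2-fold in all of these were 4 of 13 called members for CBPE minus IPE (Usp18, Ifi27l2a, Iigp1 and Ifitm1), 4 of 10 for RPE minus IPE (Oas2, Iigp1, Psmb9 and Ifitm1) and 4 of 6 for RPE minus CBPE (Oas2, Oasl2, Ifi27l2a and Bst2). Of these genes only Iigp1 has more than 1 probe set. Averaging probe sets could not change the others, so their calls were not checked by a further probe set. Members higher in CBPE than in IPE numbered 5 with the floor at the 60th percentile, 4 with a fixed floor of 100 and 5 with a pseudocount of 16 in place of a floor, against 8. Members lower there numbered 3 with the fixed floor and 2 when probe sets were averaged, against 5. For RPE against IPE the higher count was 2 with the fixed floor and 2 with equal medians, against 4, and the lower count was 2 with the fixed floor and 3 when probe sets were averaged, against 6. For RPE against CBPE the higher count was 0 when probe sets were averaged, against 1, and the lower count was 3 with the fixed floor, against 5. The fixed floor left 32, 32 and 29 members measured. The members' median log2 difference, 0.19 for CBPE minus IPE and -0.11 for RPE minus IPE, became -0.061 and -0.32 with equal medians, which shift all genes of a comparison alike. For RPE minus CBPE it was -0.28, and became -0.14 with the fixed floor, -0.21 under quantile normalization, -0.21 when probe sets were averaged and -0.14 without multi-transcript probe sets, which left 30 members. IPE was brightest for 20 members with equal medians (48.8%, all genes 49%) and for 11 under quantile normalization (26.8%, all genes 32.6%), against 13. CBPE was brightest for 21 of 41 under quantile normalization (51.2%, all genes 36.6%) and for 12 of 31 without multi-transcript probe sets (38.7%, all genes 33.3%), against 19 of 41. Where no construction is named, the cause was not tested. No paired analysis was possible because each culture has 1 array.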
